A study of Mus musculus with 12 samples.

Results

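The transcripts of 9 hepatic drug transporters were followed in the livers of wild-type and REV-ERBα-deficient mice at 2 opposite times of day. The genes are the uptake carriers *Slco1a1*, *Slco1a4*, *Slco1b2*, *Slco2b1* and *Slc22a7* and the efflux pumps *Abcc2*, *Abcc3*, *Abcb1a* and *Abcg2*, chosen by symbol from the 38926 gene symbols in the count files, and all 9 were among the 14488 genes abundant enough to be tested. RNA sequencing was carried out on 12 libraries of liver poly(A) RNA, 3 from each of 4 groups, and each library is called a liver here. The labels number the replicates without stating that each came from a different mouse, and if they did not, the p-values measure only the spread between these libraries, which may be technical. The groups were wild-type at ZT8 (WT ZT8), Rev KO at ZT8, wild-type at ZT20 (WT ZT20) and Rev KO at ZT20, where ZT is zeitgeber time in hours after lights on. All mice were on a 129Ola/C57BL6 background and 12 weeks old, and the study's methods describe male animals bred from heterozygous Rev-erbα knockout parents and held in light and dark of equal length with free access to food. The knockout is constitutive, so that *Nr1d1*, the gene for REV-ERBα, is disrupted in every tissue and not in the liver alone. The comparison asks whether the loss of this clock repressor alters the transcripts at a time when it is abundant (ZT8) and at a time when it is scarce (ZT20).

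Hepatocytes clear drugs, bile acids and hormone conjugates by taking them up from the blood through the sinusoidal membrane and pumping them, often after conjugation, across the canalicular membrane into bile. The Slco genes encode organic anion transporting polypeptides (OATPs) and *Slc22a7* encodes the organic anion transporter OAT2, all sinusoidal uptake carriers. *Abcc2* (MRP2), *Abcb1a* (P-glycoprotein) and *Abcg2* (BCRP) are ATP-driven pumps of the canalicular membrane, whereas *Abcc3* (MRP3) sits in the basolateral membrane and returns conjugates to the blood. Several of these genes are known targets of nuclear receptors such as PXR, CAR and FXR, and REV-ERBα itself is a nuclear receptor that represses transcription from response elements built on the hexamer AGGTCA.

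The reads counted on genes numbered from 17641809 to 26060192 per library, and a count of 3 reads corresponded to between 0.117 and 0.167 CPM (read counts scaled to library size by TMM), taken as the floor below which levels were not read. *Nr1d1* reached 129, 96.2 and 75.3 CPM in WT ZT8 and still 63.0, 71.9 and 80.6 CPM in Rev KO ZT8, and counts summed over the whole gene do not tell which exons were read, so *Nr1d1* does not check the genotype. *Arntl*, a known REV-ERBα target, stood at 0.796, 0.448 and 0.712 CPM in WT ZT8 and at 24.3, 25.7 and 22.7 CPM in Rev KO ZT8. Acute-phase transcripts set 2 of the WT ZT8 livers apart. *Saa1*, a plasma protein gene induced in inflammation, was at 60.8 CPM in WT ZT8 replicate 1 but at 4972 and 6489 CPM in replicates 2 and 3, and between 21.2 and 96.8 CPM in the other 9 livers. The 13 acute-phase genes examined, none of them at 0 throughout, summed to 12772, 35855 and 45357 CPM in WT ZT8 and to between 12245 and 15609 CPM in the other groups, and 8 of the 13 were lower in Rev KO at ZT8 by edgeR. The main results that rest on WT ZT8 were therefore also fitted without these 2 livers, in a fit in which the remaining WT ZT8 liver is assumed to vary like the other groups. All 6 hepatocyte markers were present, with a summed level between 56509 and 111289 CPM. In whole liver, fewer cells of a type and less RNA per cell cannot be told apart.

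The transporter genes differ widely in abundance. Expressed per kilobase of annotated exon (CPM/kb), *Slco1b2*, the liver-specific OATP1B carrier, was the highest of the 9, with a median level of 269.9 CPM/kb over the 12 livers and a range of 199.1 to 356.9. It was followed by *Slco1a1* (median 120.6, range 105.2 to 176.1 CPM/kb) and *Abcc2* (median 69.7, range 44.9 to 88.6 CPM/kb), and the ranges of these highest 3 genes did not overlap. *Slc22a7*, *Abcc3* and *Slco2b1* had median levels of 33.4, 33.1 and 30.7 CPM/kb with overlapping ranges, and their order is not larger than the spread between livers. *Abcg2* (18.5 CPM/kb) and *Slco1a4* (10.7 CPM/kb) were lower, with ranges that also overlapped. *Abcb1a* was far below the other genes, with a median level of 0.398 CPM/kb and a range of 0.188 to 0.639.

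*Slco1a1* (chr6:141907282-141946962, minus strand), *Slco1a4* (chr6:141805440-141856199, minus strand) and *Slco1b2* (chr6:141629518-141686646, plus strand) lie side by side on chromosome 6 of mm10, and *Abcg2* (chr6:58584523-58695676, plus strand) is on the same chromosome. *Slco2b1* is at chr7:99657804-99711340 (minus strand) and *Slc22a7* at chr17:46432183-46438457 (minus strand). *Abcc2* is at chr19:43782192-43840740 (plus strand), *Abcc3* at chr11:94343295-94392997 (minus strand) and *Abcb1a* at chr5:8660077-8748575 (plus strand), all from the GENCODE annotation. Because reads with more than 1 place in the genome were not counted, the share of each transcript that another gene repeats bears on its count. Of the 75-base stretches of *Abcb1a* exons, 11.9% also occur in its paralog *Abcb1b* and 7.49% in the antisense gene *Gm42686*. For *Slco2b1* the shared part was 4.75%, nearly all with the antisense gene *Gm15635*, for *Slco1a1* and *Slco1a4* it was 1.08% and 1.03%, and for the other 5 genes it was 0. The part shared with an antisense gene is the same place in the genome, and the counting ignored the strand. Where the annotation used for counting held the antisense gene, reads there were set aside as ambiguous. Where it did not, reads from the antisense gene cannot be told apart from those of *Abcb1a* or *Slco2b1*. Which of these applied is not known.

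Promoters were searched for the hexamer AGGTCA, the core shared by response elements of many nuclear receptors, among them that of REV-ERBα. Some of the windows that hold it are shown, and the hexamer alone does not mark a REV-ERBα site. RefSeq promoter windows (GRCm38.p6, the assembly behind mm10), each of 250 bases before and 50 after a transcription start, were at hand for 7 of the 9 genes, 11 windows in all, and both strands were searched. This core hexamer was found in 5 of the 11 windows and in 16.3% of all 32851 mouse windows. The sequences of *Slco1a1* and *Abcg2*, which were higher in Rev KO at ZT8, and of *Slco1b2*, the most abundant carrier, are given 5′ to 3′ along the gene's strand and without annotated exon bases, with core hexamers on either strand in capitals:
Slco1a1 (chr6:141946963-141947212, minus strand): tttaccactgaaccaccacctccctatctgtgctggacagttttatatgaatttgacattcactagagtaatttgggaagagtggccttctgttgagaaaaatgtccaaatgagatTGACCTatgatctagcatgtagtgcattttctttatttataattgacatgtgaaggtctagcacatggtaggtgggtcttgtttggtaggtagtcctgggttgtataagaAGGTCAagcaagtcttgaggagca
Abcg2, start 1 (chr6:58584283-58584522, plus strand): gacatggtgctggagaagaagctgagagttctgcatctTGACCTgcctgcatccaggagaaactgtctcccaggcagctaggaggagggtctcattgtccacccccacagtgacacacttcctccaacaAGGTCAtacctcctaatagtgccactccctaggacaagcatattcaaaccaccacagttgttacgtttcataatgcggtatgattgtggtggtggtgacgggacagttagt
Abcg2, start 3 (chr6:58640296-58640545, plus strand): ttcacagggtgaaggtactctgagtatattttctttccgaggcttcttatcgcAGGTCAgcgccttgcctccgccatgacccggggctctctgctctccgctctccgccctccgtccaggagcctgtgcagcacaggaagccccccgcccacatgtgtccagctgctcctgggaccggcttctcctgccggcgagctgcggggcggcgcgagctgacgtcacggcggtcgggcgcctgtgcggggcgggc
Slco1b2 (chr6:141629268-141629517, plus strand): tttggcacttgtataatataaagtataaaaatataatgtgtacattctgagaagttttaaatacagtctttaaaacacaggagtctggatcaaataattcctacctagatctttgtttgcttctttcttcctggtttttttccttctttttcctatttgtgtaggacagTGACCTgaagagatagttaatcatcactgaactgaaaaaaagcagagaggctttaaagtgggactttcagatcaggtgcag
*Slco1a1* held a core hexamer on the opposite strand whose first base lay at -134 and one on the gene's strand at -24 from the transcription start. The window of *Abcg2* start 1 held one at -212 and one at -121, that of start 3 one at -197, *Slco1b2* one at -81, and *Abcc2* one at -49. The *Abcc2* hexamer lies in bases that GENCODE annotates as exon of the gene. The longer REV-ERB and ROR element ANTAGGTCA (RORE), which contains the core hexamer, was in none of the 11 windows and in 0.661% of all windows. The E-box CACGTG and direct repeats of the core hexamer spaced by 1 (DR1) or 4 bases (DR4) were also in none of the 11, against 7.15%, 0.0396% and 0.0152% of all windows. The D-box TTANGNAA, to which the clock factors DBP and NFIL3 bind, was in 2 of the 11 windows, those of *Slco1a4* and of *Abcg2* start 1, and in 11.5% of all windows. A match of letters is a description, and no binding was measured here. The *Abcb1a* window and that of *Abcg2* start 2 held no core hexamer and are not shown. The *Abcb1a* window lies upstream of the GENCODE gene start and represents another transcription start.

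**Figure D1:**
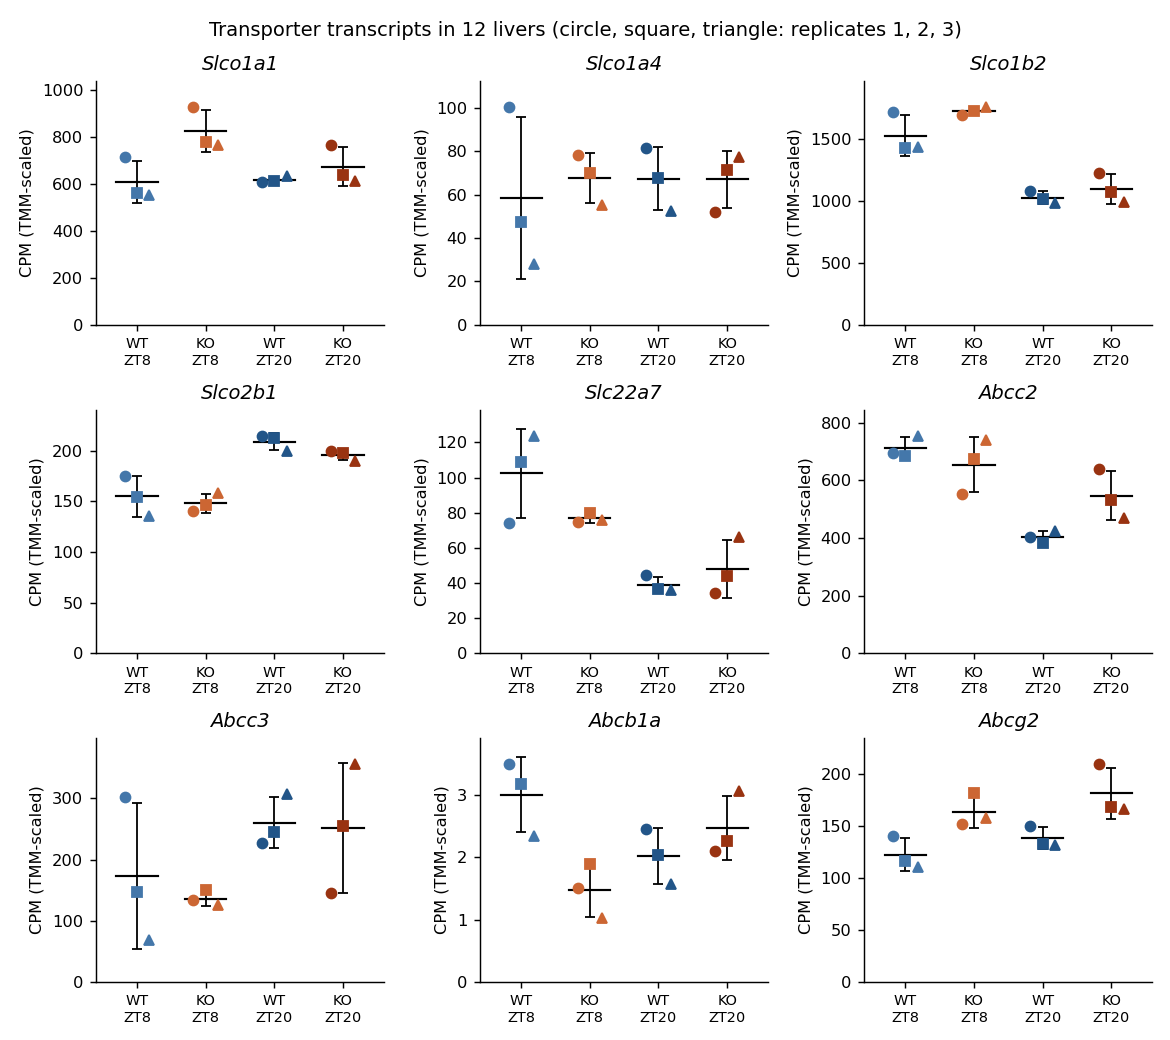
Levels of the 9 transporter transcripts (y axis, TMM-scaled CPM, from 0) in each of the 12 livers, grouped by genotype and time on the x axis; symbols mark replicates, horizontal lines the group mean and bars the SD of 3 livers. Slco1b2, Slc22a7 and Abcc2 were lower at ZT20 in wild-type and Slco2b1 was higher, Abcg2 was higher in Rev KO at both times without overlap, and Slco1a4 and Abcc3 were widely spread in WT ZT8.

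At ZT8, the loss of REV-ERBα was accompanied by higher *Slco1a1* and *Abcg2* and lower *Abcb1a*. Of the 9 transporters, 2 rose and 1 fell in Rev KO against wild-type in edgeR's quasi-likelihood test over all tested genes (Benjamini-Hochberg adjusted p below 0.05). Over all 14488 genes 8.45% passed, 4.4% upwards and 4.04% downwards. The same 3 transporters were those whose groups did not overlap, as did not 25.6% of all genes. The median log2 fold change of the 9 was -0.07, beside 0.00 over all genes.

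*Slco1a1*, the male-predominant OATP1A carrier of the mouse liver, was at 714, 562 and 555 CPM in WT ZT8 and at 929, 779 and 768 CPM in Rev KO ZT8. All 3 Rev KO livers lay above all 3 wild-type livers, the lowest at 768 against the highest at 714 CPM. The group means were 611 ± 89.7 and 825 ± 89.8 CPM (SD, n = 3), and the increase was 1.35-fold (95% interval 1.13 to 1.61, log2 fold change 0.43, SE 0.120, edgeR adjusted p = 0.0360). The call depended on single livers: it was lost without WT ZT8 replicate 2 (log2 fold change 0.38) or 3 (0.37), Rev KO ZT8 replicate 1 (0.34) or 2 (0.48), WT ZT20 replicate 2 (0.44) or Rev KO ZT20 replicate 2 (0.44). Without both wild-type livers with high *Saa1*, the log2 fold change was 0.20 (edgeR adjusted p = 0.619). In edgeR on the 6 ZT8 livers alone it did not pass either (0.43, edgeR adjusted p = 0.0921). The wild-type liver with low *Saa1* was the one with the highest *Slco1a1*, at 714 CPM, and the part of the acute phase in the difference was not tested.

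*Abcg2*, the canalicular pump for sulfated steroids and many drugs, was at 140, 116 and 110 CPM in WT ZT8 and at 151, 182 and 157 CPM in Rev KO ZT8. The groups were separated, if only by the distance from 140 to 151 CPM. The increase from 122 ± 16.0 to 164 ± 16.1 CPM (SD, n = 3) was 1.34-fold (95% interval 1.13 to 1.58, log2 fold change 0.42, SE 0.112, edgeR adjusted p = 0.0317). The call was lost without WT ZT8 replicate 2 (log2 fold change 0.39) or 3 (0.35) or Rev KO ZT8 replicate 2 (0.34). Without both wild-type livers with high *Saa1*, it was 0.22 (edgeR adjusted p = 0.587), and here too the low-Saa1 liver had the highest level of its group. In edgeR on the 6 ZT8 livers alone it was 0.42 (edgeR adjusted p = 0.0566).

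*Abcb1a*, one of the paralogous mouse genes for P-glycoprotein, was at 3.50, 3.19 and 2.34 CPM in WT ZT8 and at 1.51, 1.89 and 1.03 CPM in Rev KO ZT8. These levels rest on 88, 64 and 46 reads against 29, 34 and 21 reads. Every Rev KO liver was below every wild-type liver, and the mean was 3.01 ± 0.602 against 1.47 ± 0.431 CPM (SD, n = 3), a 2.06-fold decrease (log2 fold change -1.04, SE 0.261, 95% interval -1.60 to -0.49, edgeR adjusted p = 0.0228). The call was lost without WT ZT8 replicate 2 (log2 fold change -1.002), Rev KO ZT8 replicate 1 (-1.07) or Rev KO ZT8 replicate 3 (-0.83). Without both high-Saa1 livers, the log2 fold change was -1.26 and did not pass. The wild-type liver that remained in that fit, WT ZT8 replicate 1, had the highest *Abcb1a* of its group, at 3.50 CPM. The part of the acute phase in the difference was not tested. Its paralog *Abcb1b* was at 1.83, 2.34 and 1.78 CPM in WT ZT8 and at 1.51, 2.50 and 2.55 CPM in Rev KO ZT8, with overlapping groups (log2 fold change 0.14, SE 0.700). The 5 cholangiocyte markers, none of them at 0 throughout, summed to between 4.93 and 7.56 CPM in WT ZT8 and between 10.0 and 15.7 CPM in Rev KO ZT8. Most of this sum was *Sox9* (means of 4.17 and 9.64 CPM), the only 1 of the 4 tested that increased. *Krt7*, *Krt19*, *Epcam* and *Cftr* had overlapping groups, with means between 0.11 CPM (*Cftr* in WT ZT8) and 1.06 CPM (*Epcam* in Rev KO ZT8). The part of these markers in the *Abcb1a* difference was not tested.

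The other 6 transporters did not pass at ZT8, and the 95% interval of each log2 fold change is given in its place. For *Slco1b2* the wild-type livers were at 1719, 1431 and 1435 CPM and the Rev KO livers at 1692, 1731 and 1759 CPM, overlapping only through WT ZT8 replicate 1 (log2 fold change 0.18, 95% interval -0.05 to 0.40). For *Slco2b1* the log2 fold change was -0.07 (-0.25 to 0.12), and for *Abcc2* it was -0.12 (-0.38 to 0.14). *Slc22a7*, at 74.1, 109 and 124 CPM in WT ZT8 and within 74.7 to 79.7 CPM in Rev KO ZT8, had a log2 fold change of -0.41 (-0.96 to 0.14), which was 0.05 without both high-Saa1 livers. *Slco1a4* and *Abcc3* had intervals of more than 1 log2 unit on at least 1 side (0.20, -0.76 to 1.17, and -0.34, -1.50 to 0.81), and for these genes a change of 1.5-fold was not detectable here. None of the 6 passed without both high-Saa1 livers, where the log2 fold changes of *Slco2b1*, *Abcc2* and *Abcc3* were -0.25, -0.088 and -1.16.

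**Figure D2:**
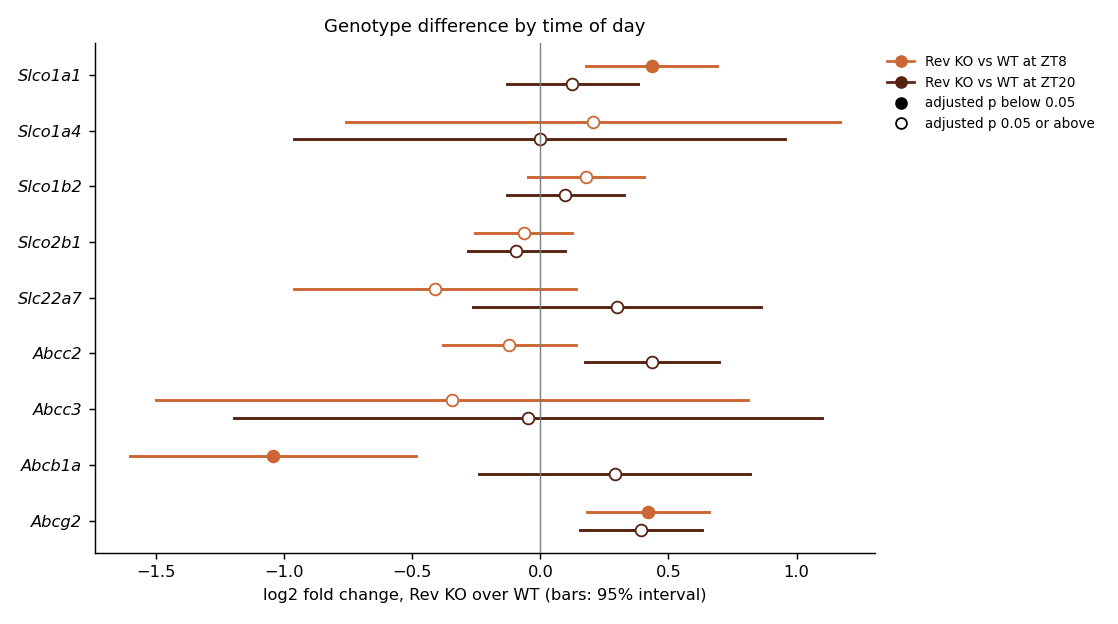
Log2 fold change of Rev KO over wild-type (x axis) for each transporter (y axis) at ZT8 and at ZT20, with 95% intervals from edgeR over all 12 livers; filled points have an adjusted p below 0.05. Slco1a1 and Abcg2 were above 0 and Abcb1a below 0 at ZT8, whereas no transporter passed at ZT20, where Abcc2 at 0.44 and Abcg2 at 0.39 came nearest.

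**Figure D3:**
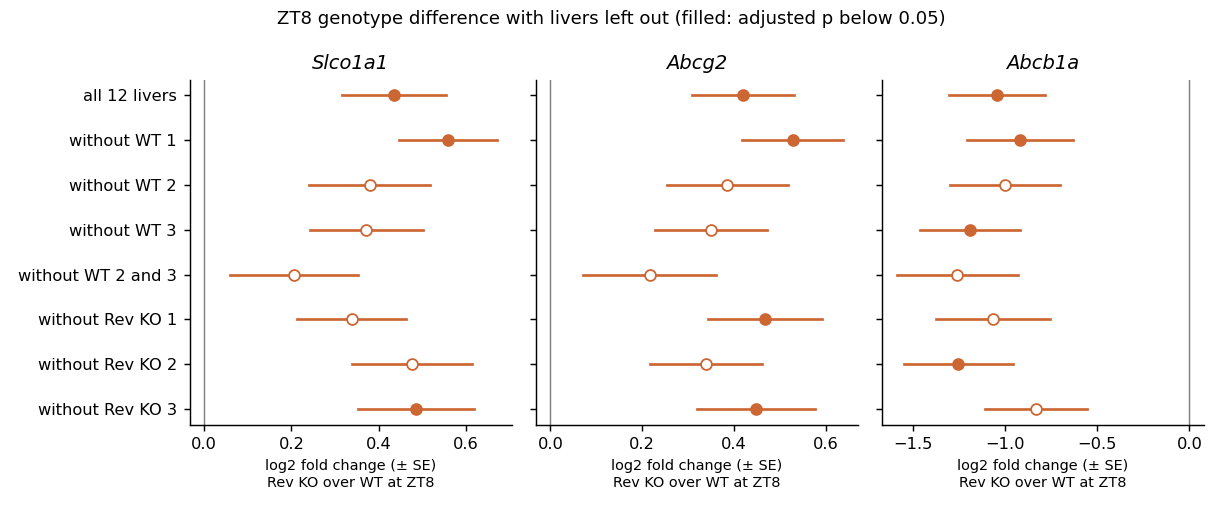
Log2 fold change of Rev KO over wild-type at ZT8 (x axis, bars are the SE) for the 3 transporters that passed, with all 12 livers and with the named ZT8 livers left out (y axis); filled points have an edgeR adjusted p below 0.05. Every fit kept its direction, and without WT replicates 2 and 3 together the values were 0.20 for Slco1a1, 0.22 for Abcg2 and -1.26 for Abcb1a.

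At ZT20, when *Nr1d1* is at its low phase in wild-type, no transporter passed in edgeR (0 of 9, beside 3.63% of all genes, 2.09% upwards and 1.54% downwards). At an unadjusted p below 0.05 there were 2, *Abcc2* and *Abcg2*, and DESeq2 on the same 12 libraries called both. The groups were separated for 3 of the 9, those 2 and *Slco2b1*, and for 22.5% of all genes.

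*Abcc2*, the canalicular pump for bilirubin and glutathione conjugates, was at 405, 383 and 424 CPM in WT ZT20 and at 639, 533 and 469 CPM in Rev KO ZT20. All 3 Rev KO livers were higher than all 3 wild-type livers, with means of 547 ± 85.6 and 404 ± 20.6 CPM (SD, n = 3). The log2 fold change was 0.44 (SE 0.122, 95% interval 0.18 to 0.70, edgeR adjusted p = 0.0666), and DESeq2 gave an adjusted p of 0.0145. In edgeR it passed when WT ZT8 replicate 1 (log2 fold change 0.44), Rev KO ZT8 replicate 1 (0.44) or Rev KO ZT20 replicate 3 (0.54) was left out.

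*Abcg2* was at 150, 132 and 132 CPM in WT ZT20 and at 209, 168 and 166 CPM in Rev KO ZT20. As at ZT8, the groups did not overlap, and the log2 fold change was 0.39 (SE 0.112, 95% interval 0.15 to 0.63, edgeR adjusted p = 0.0719, DESeq2 adjusted p = 0.0372). It passed in edgeR when WT ZT8 replicate 1 was left out (log2 fold change 0.40), and when both high-Saa1 livers were left out (0.40). *Slco2b1*, a broadly expressed OATP, was at 215, 212 and 200 CPM in WT ZT20 and at 199, 198 and 190 CPM in Rev KO ZT20, lower in every liver but by little (log2 fold change -0.09, 95% interval -0.28 to 0.09, edgeR adjusted p = 0.715).

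*Slco1a1*, which passed at ZT8, was at 608, 614 and 633 CPM in WT ZT20 and at 769, 640 and 614 CPM in Rev KO ZT20, with overlapping groups (log2 fold change 0.12, 95% interval -0.13 to 0.38). *Abcb1a* was at 2.47, 2.03 and 1.57 CPM in WT ZT20 and at 2.10, 2.26 and 3.07 CPM in Rev KO ZT20 (log2 fold change 0.29, 95% interval -0.24 to 0.82). The direction of its mean difference was thus opposite to that at ZT8. The remaining 4 genes had log2 fold changes between -0.05 for *Abcc3* and 0.30 for *Slc22a7*, each with overlapping groups.

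The genotype effects at ZT8 and ZT20 were then compared directly. The difference between them (ZT8 minus ZT20) passed for 1 of the 9 transporters, *Abcb1a*, and for 5.88% of all genes (3.05% positive and 2.83% negative). For *Abcb1a* it was -1.33 on the log2 scale (SE 0.361, 95% interval -2.10 to -0.56, edgeR adjusted p = 0.0414). It kept its direction in all 12 fits with 1 library left out, between -1.54 and -1.12, but passed in 4 of them only. It was lost without WT ZT8 replicate 1 (-1.21) or 2 (-1.29), Rev KO ZT8 replicate 1 (-1.36) or 3 (-1.12), WT ZT20 replicate 2 (-1.33) or 3 (-1.19), or Rev KO ZT20 replicate 2 (-1.39) or 3 (-1.15). Without both high-Saa1 livers it was -1.55 (edgeR adjusted p = 0.0577). For *Abcc2* the difference was -0.56 (SE 0.173, edgeR adjusted p = 0.0739), and it passed without Rev KO ZT8 replicate 3 or Rev KO ZT20 replicate 3 (both -0.65). It also passed in DESeq2 on the 12 libraries (DESeq2 adjusted p = 0.0268) and in edgeR with no filter on abundance. For *Slco1a1*, which passed at ZT8 and not at ZT20, the difference itself was 0.31 (95% interval -0.05 to 0.67, edgeR adjusted p = 0.334), so that its effect is not shown to differ between the times. Without both high-Saa1 livers the difference was 0.076 for *Slco1a1* (edgeR adjusted p = 0.899) and -0.53 for *Abcc2* (edgeR adjusted p = 0.245).

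Averaged over both times, *Abcg2* was the transporter that passed (1 of 9, beside 6.34% of all genes, 3.33% upwards and 3.02% downwards). Its mean genotype effect was a 1.33-fold increase (95% interval 1.18 to 1.49, log2 fold change 0.41, SE 0.0791, edgeR adjusted p = 0.00635), and at each time all 3 Rev KO livers were above all 3 wild-type livers. This call was kept in all 12 fits with 1 library left out, between 0.35 and 0.46, and was lost without both high-Saa1 livers (0.31, edgeR adjusted p = 0.0886). The ZT8 and ZT20 effects of *Abcg2* differed by 0.03 (95% interval -0.31 to 0.36). *Slco1a1* came next, at 0.28 (SE 0.0846, edgeR adjusted p = 0.0650). In DESeq2 on the 12 libraries it passed (DESeq2 adjusted p = 0.0191), as it did in edgeR with no filter on abundance. It passed without WT ZT8 replicate 1 (0.34), and without both high-Saa1 livers it was 0.17 (edgeR adjusted p = 0.420).

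The levels at ZT20 and ZT8 were then compared within each genotype. In wild-type, 4 of the 9 passed between ZT20 and ZT8, 3 lower and 1 higher at ZT20, beside 27.7% of all genes (13.9% lower and 13.8% higher). These 4 were also the transporters with separated groups, as were 42.3% of all genes. In Rev KO, 2 of the 9 passed (17.5% of all genes, 8.79% higher and 8.67% lower), 1 in each direction, and 4 had separated groups (35% of all genes). The WT ZT8 livers enter both the wild-type time comparison and the ZT8 genotype comparison, so that these are not independent.

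*Slc22a7* (OAT2), a carrier of small organic anions, had the largest log2 fold change of the 9 in the wild-type time comparison with all 12 livers. It was at 74.1, 109 and 124 CPM at ZT8 and at 44.3, 36.8 and 36.2 CPM at ZT20, a 2.61-fold lower level (log2 fold change -1.39, SE 0.250, edgeR adjusted p = 0.00307). In Rev KO it was at 74.7, 79.7 and 76.0 CPM at ZT8 and at 34.3, 43.8 and 66.4 CPM at ZT20, also without overlap (log2 fold change -0.67, SE 0.247, edgeR adjusted p = 0.0969). The Rev KO difference passed without Rev KO ZT20 replicate 3 (-0.98), in DESeq2 on the 12 libraries (-0.68, DESeq2 adjusted p = 0.00968) and in DESeq2 with shrinkage on the 6 Rev KO libraries (DESeq2 adjusted p = 0.00280). The wild-type difference was -0.93 without both high-Saa1 livers (edgeR adjusted p = 0.0916), and WT ZT8 replicate 1, with 74.1 CPM, was the lowest of its group. The time differences of the genotypes differed by 0.71 (edgeR adjusted p = 0.303 for the interaction), so that the time difference is not shown to depend on genotype.

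*Slco1b2* was lower at ZT20 in both genotypes. In wild-type it was at 1083, 1015 and 982 CPM at ZT20, all below the ZT8 values, and 1.49-fold lower than at ZT8 (log2 fold change -0.57, SE 0.107, edgeR adjusted p = 0.000962). In Rev KO it was at 1229, 1070 and 995 CPM at ZT20, and 1.57-fold lower than at ZT8 (log2 fold change -0.65, SE 0.107, edgeR adjusted p = 0.000752). Both calls were kept in all 12 fits with 1 library left out and without both high-Saa1 livers, where the wild-type difference was -0.75.

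*Slco2b1* moved the opposite way, from 175, 154 and 135 CPM at ZT8 to 215, 212 and 200 CPM at ZT20 in wild-type. The increase was 1.35-fold (log2 fold change 0.43, SE 0.0885, edgeR adjusted p = 0.00205). In Rev KO it went from 140, 146 and 158 to 199, 198 and 190 CPM, a 1.32-fold increase (log2 fold change 0.40, SE 0.0885, edgeR adjusted p = 0.00577). The groups were separated in both genotypes. Without both high-Saa1 livers the wild-type increase was 0.25 and did not pass (edgeR adjusted p = 0.153).

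*Abcc2* fell at night in wild-type, from 694, 685 and 756 CPM at ZT8 to 405, 383 and 424 CPM at ZT20. The level was 1.76-fold lower (log2 fold change -0.82, SE 0.123, edgeR adjusted p = 0.000164), the smallest adjusted p of the 9 transporters, and the call was kept without both high-Saa1 livers (-0.79, edgeR adjusted p = 0.00701). In Rev KO the ZT8 livers at 552, 673 and 739 CPM overlapped those at ZT20, of 639, 533 and 469 CPM (log2 fold change -0.26, SE 0.122, edgeR adjusted p = 0.165), and the difference passed only without Rev KO ZT20 replicate 1 (-0.39). The comparison of the 2 time differences is the interaction given above, -0.56 with an edgeR adjusted p of 0.0739.

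The other 5 transporters did not pass between the times in either genotype. *Abcb1a* had separated groups in Rev KO, with 1.51, 1.89 and 1.03 CPM at ZT8 below 2.10, 2.26 and 3.07 CPM at ZT20 (log2 fold change 0.75, SE 0.264, edgeR adjusted p = 0.0626), and a log2 fold change of -0.58 in wild-type (edgeR adjusted p = 0.0948), which was -0.80 without both high-Saa1 livers (edgeR adjusted p = 0.135). *Slco1a1* had a log2 fold change of 0.02 in wild-type and of -0.29 in Rev KO (edgeR adjusted p = 0.110), the latter passing without WT ZT8 replicate 1 (-0.29) or Rev KO ZT20 replicate 1 (-0.40). *Abcg2* differed by 0.17 in wild-type and 0.15 in Rev KO, with overlapping groups in both.

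**Figure D4:**
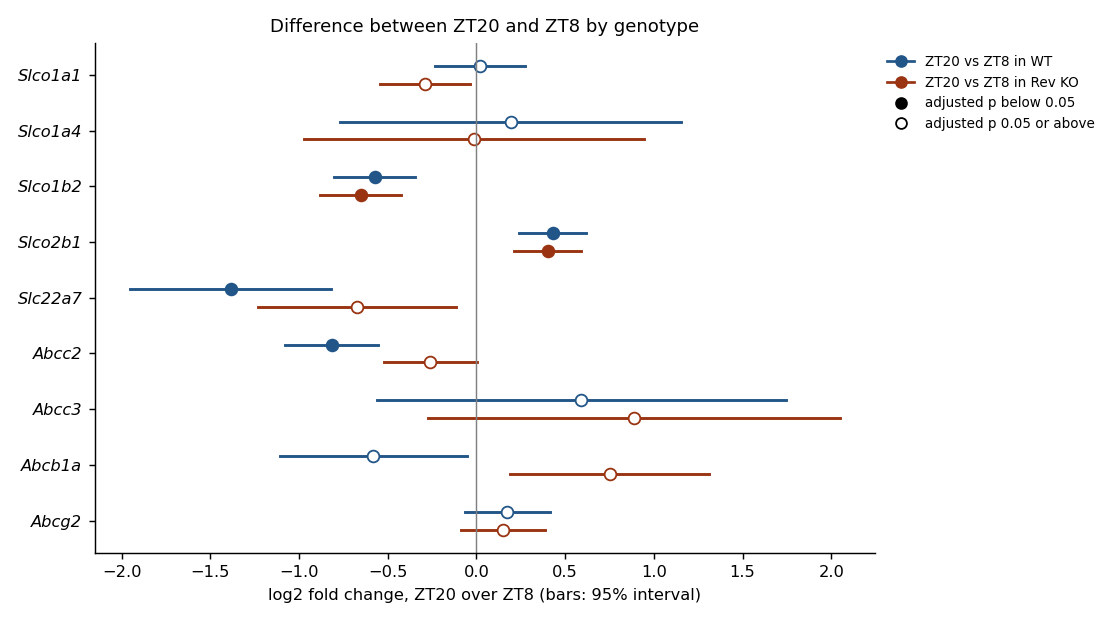
Log2 fold change of ZT20 over ZT8 (x axis) for each transporter (y axis) in wild-type and in Rev KO, with 95% intervals from edgeR over all 12 livers; filled points have an adjusted p below 0.05. Slco1b2 (-0.57 and -0.65) and Slco2b1 (0.43 and 0.40) passed in both genotypes, Slc22a7 (-1.39) and Abcc2 (-0.82) in wild-type.

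*Slco1a4* and *Abcc3*, known as genes that respond to xenobiotic receptors, varied widely within groups. *Slco1a4* was at 100, 47.4 and 28.0 CPM in WT ZT8, a spread of 3.58-fold, at 78.1, 70.0 and 55.4 CPM in Rev KO ZT8, at 81.5, 67.9 and 52.5 CPM in WT ZT20 and at 52.3, 71.6 and 77.6 CPM in Rev KO ZT20. Its group means lay between 58.6 and 67.8 CPM, closer together than the livers of any group. *Abcc3* was at 303, 147 and 68.5 CPM in WT ZT8, at 133, 149 and 126 CPM in Rev KO ZT8, at 228, 246 and 307 CPM in WT ZT20 and at 145, 255 and 356 CPM in Rev KO ZT20. It thus spanned 5.20-fold over the 12 livers, the widest span of the 9 transporters. In both genes the low-Saa1 liver was the highest of WT ZT8 and the liver with the most *Saa1* the lowest, so that the sign of several of their differences rests on that group. Without both high-Saa1 livers the ZT8 genotype difference of *Slco1a4* was -0.57, where it was 0.20 with them, and the wild-type time difference of *Abcc3* was -0.22, where it was 0.59. In Rev KO ZT20 no liver had high *Saa1*, at 30.5, 32.8 and 21.2 CPM, and *Abcc3* there ran in the same order as *Cyp2b10*, a cytochrome P450 gene and marker of CAR activity, at 1.05, 6.04 and 12.4 CPM. *Cyp2b10* was singled out after its values had been seen. The order was not particular to *Abcc3*, since *Slco1a4*, *Slc22a7* and *Abcb1a* rose in the same order in these livers. *Slco1a1*, *Slco1b2*, *Slco2b1*, *Abcc2* and *Abcg2* ran in the reverse order, and a link to *Cyp2b10* was not tested.

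**Figure D5:**
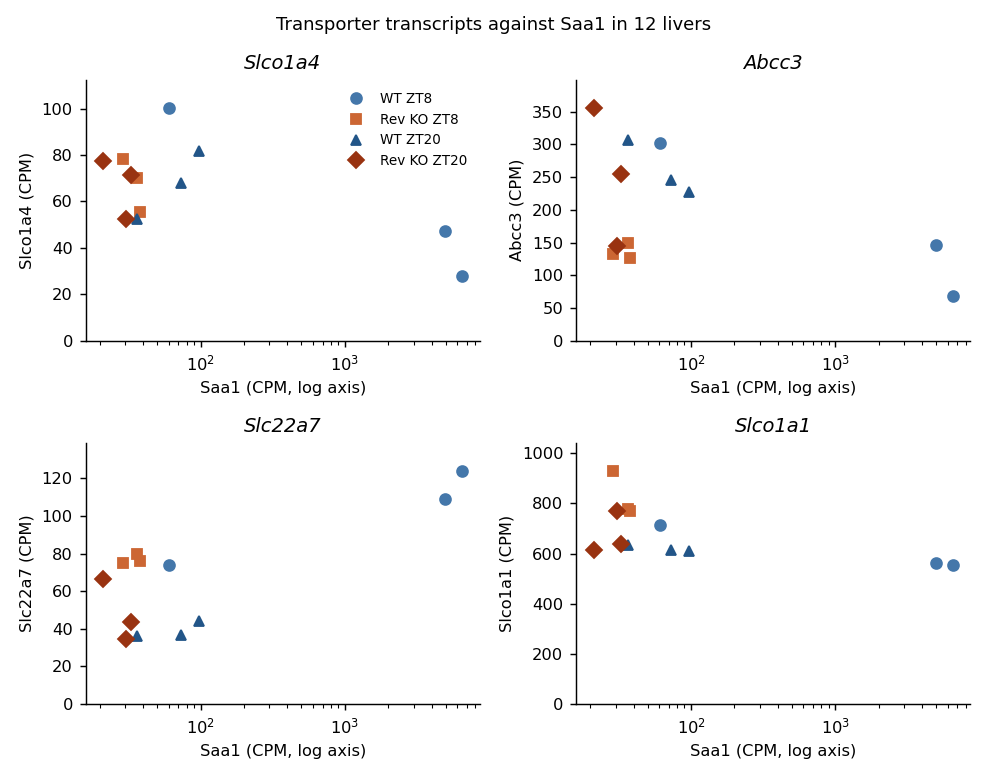
Levels of Slco1a4, Abcc3, Slc22a7 and Slco1a1 (y axes, CPM, from 0) against Saa1 (x axes, CPM, log axis) in the 12 livers, with a symbol for each group. WT ZT8 replicates 2 and 3, at 4972 and 6489 CPM of Saa1, had the lowest Slco1a4 (47.4 and 28.0 CPM) and the highest Slc22a7 (109 and 124 CPM) of the 12 livers, whereas the other 10 livers had less than 100 CPM of Saa1.

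Within groups, some pairs of transporters varied together and others in opposite directions, and 10 of the 36 pairs had a negative correlation. When each gene's log2 CPM was centred on its group mean, *Slco1b2* and *Abcg2* had a Pearson correlation of 0.872 over the 12 livers (Spearman 0.860), which was 0.694 without the 2 livers farthest from the median and 0.814 over the 9 livers outside WT ZT8. *Slco1a4* and *Abcc3* had a correlation of 0.831 (Spearman 0.538), but 0.392 outside WT ZT8. *Slc22a7* had a correlation of -0.801 with *Slco1a1* (Spearman -0.853), which was -0.543 without the 2 livers farthest from the median and -0.685 outside WT ZT8. With *Slco1b2* its correlation was -0.785 (Spearman -0.552), and -0.462 without the 2 livers farthest from the median. These values are descriptions across livers that share library scaling and groups. By level over all 12 livers, the genes most like *Slco1a1* were *Gjb1*, *Glt28d2* and *Med7* (Pearson 0.916, 0.915 and 0.909), and those most like *Abcg2* were *Rbbp8*, *Tubgcp4* and *Cyp3a25* (0.955, 0.932 and 0.932).

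Other carriers and pumps of the liver were examined beside the 9. Of 25 further uptake carriers, 20 were tested, and at ZT8 3 rose and 2 fell in Rev KO, beside 4.4% of all genes upwards and 4.04% downwards. *Slc22a28*, *Slc22a30* and *Slc17a1* were higher (log2 fold changes 0.82, 0.60 and 0.51), and *Slc22a5*, the carnitine carrier, and *Slc22a23* were lower (-0.63 and -0.40). At ZT20 1 fell, *Slc10a2*, the apical bile acid carrier known from ileum and bile ducts, from 72.8, 66.3 and 47.8 CPM in wild-type to 12.1, 13.2 and 11.3 CPM in Rev KO (log2 fold change -2.35, edgeR adjusted p = 0.000728). Averaged over both times, *Slc22a3* and *Slc22a30* were higher (0.45 and 0.41) and *Slc10a2*, *Slc22a5* and *Slc22a23* lower (-1.28, -0.37 and -0.25). In the fit without both high-Saa1 livers, extended to these lists after the data had been seen, none of these 5 ZT8 calls and none of these 5 average calls was kept (at ZT8 0.54, 0.47, 0.29, -0.47 and -0.21), and *Slc10a2* still fell at ZT20.

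Of 15 further efflux pumps, 12 were tested. At ZT8 *Abcb11*, the bile salt export pump, rose (log2 fold change 0.39), and the sterol pumps *Abcg5* and *Abcg8* fell (-0.77 and -0.93). At ZT20 *Abcc6* rose (0.50). The genotype effects of all 4 differed between the times (ZT8 minus ZT20, 0.60 for *Abcb11*, -0.70 for *Abcg5*, -0.78 for *Abcg8* and -0.86 for *Abcc6*), as did that of *Slc10a2* (2.13). Without both high-Saa1 livers, *Abcg5* (-0.66) and *Abcg8* (-0.89) still fell at ZT8, and *Abcb11* did not pass there (0.24). *Abcc6*, which did not pass at ZT8 with all 12 livers, stood at -0.59 there in this fit. The differences between the times then passed for *Abcg5*, *Abcg8* and *Abcc6*, and not for *Abcb11* (0.44, edgeR adjusted p = 0.288) or *Slc10a2* (2.31, edgeR adjusted p = 0.0703). With all 12 livers, *Abcg2* (0.42) and the sterol pumps, all of the ABCG family, thus moved in opposite directions at ZT8. Without both high-Saa1 livers *Abcg2* was at 0.22 there and did not pass. The groups of *Abcg5* in WT ZT8 were at 134, 151 and 150 CPM, against 75.0, 86.6 and 93.9 CPM in Rev KO ZT8.

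Among 19 known regulators of these genes, all tested, 2 rose at ZT8, *Nfil3*, the D-box repressor (log2 fold change 2.29), and *Hnf4a*, a master factor of hepatocytes (0.35). At ZT20 *Ahr*, the dioxin receptor, rose (0.37). The xenobiotic receptor genes *Nr1i2* (PXR) and *Nr1i3* (CAR) and the bile acid receptor gene *Nr1h4* (FXR) did not pass in either comparison. The genotype effect differed between the times for *Nfil3* (2.48), *Hnf4a* (0.50), *Arnt* (0.37) and *Ahr* (-0.56). When both high-Saa1 livers were left out, *Hnf4a* passed neither at ZT8 (0.40, edgeR adjusted p = 0.182) nor in the difference between the times (0.55, edgeR adjusted p = 0.101), whereas the calls of *Nfil3*, *Arnt* and *Ahr* were kept. *Nfe2l2*, which did not pass at ZT8 with all 12 livers, stood at -0.58 there in that fit. The median log2 fold changes of the carrier, pump and regulator lists at ZT8 were -0.03, -0.11 and -0.09, near the 0.00 of all genes. Of 16 enzyme genes that are targets of the same receptors, 1 rose at ZT8 (*Gstm1*, not without both high-Saa1 livers) and 1 at ZT20 (*Txnrd1*). Of 9 male-biased liver genes, a class to which *Slco1a1* belongs, 4 rose in the average over both times (*Cyp7b1*, *Elovl3*, *Hsd3b5* and *Mup20*), beside 3.33% of all genes upwards. At ZT8 itself, where *Slco1a1* passed, 2 of the 9 rose (*Elovl3* and *Hsd3b5*) and 1 fell, beside 4.4% of all genes upwards and 4.04% downwards. The 1 that fell was *Mup20*, from 616, 665 and 604 CPM in wild-type to 476, 400 and 499 CPM in Rev KO (log2 fold change -0.45, edgeR adjusted p = 0.0280). With both high-Saa1 livers left out, *Hsd3b5* passed neither at ZT8 (0.24) nor in the average (0.25), and *Mup20* did not pass at ZT8 (-0.43). *Cyp4a12b*, another male-biased gene, did not pass at ZT8 with all 12 livers and stood at -0.84 there in that fit. Of 10 female-biased genes, only 3 were abundant enough to be tested, and none of them passed at ZT8 with all 12 livers. The female-biased *Cyp17a1* stood at 3.43 at ZT8 without both high-Saa1 livers.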

How the data were processed

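Liver RNA of 12 libraries was analysed, 3 per genotype and time, with groups and replicate numbers taken from the sample labels. The authors prepared poly(A) libraries, sequenced up to 75 bases, aligned them to mm10 using TopHat and summed unique reads by gene name in HTSeq-count (union mode, alignment quality of at least 10, strand ignored). The deposited values are these raw counts for 38926 symbols, not normalized. The annotation version they used is not given in the sources used here. The 5 summary lines stayed out of library sizes; reads without a feature came to 8.50% to 9.95% and ambiguous reads to 3.08% to 3.62% of all the reads in genes and these classes. Counts of every replicate pair differed beyond counting error (chi-square of 7.60 to 142 for each degree of freedom).

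Here, filterByExpr kept 14488 genes, TMM scaled the libraries, and edgeR 4.0.16 (R 4.3.3) fitted 4 group means over all 12 libraries with robust quasi-likelihood. The contrasts set Rev KO against WT for ZT8 and for ZT20, took the difference and the mean of both effects, and set ZT20 against ZT8 in WT and in Rev KO. The Benjamini-Hochberg adjustment ran over all tested genes of a contrast (threshold 0.05). An exact two-sided permutation test of 3 against 3 cannot go below p = 0.1, the value of every pair of separated groups, and is not repeated. Intervals are 95%. Fits were tested on simulated data. All 9 transporters are described in every contrast; further carriers, pumps and regulators are named where they passed in a genotype contrast or the interaction, and for transporters that passed in these the 3 genes of highest correlation, which for *Abcb1a* are not reported here. The transporters and all lists were chosen with earlier results of these data known. Alternatives were DESeq2 1.42.0 on 12 libraries or with shrinkage on 6, size factors, no filter, at least 10 counts in every library, edgeR on the 6 libraries compared, a replicate block, an adjusted p of 0.01, each library left out, and both WT ZT8 libraries with high acute-phase transcripts left out, a fit applied to the further lists only after the data had been seen. Gene positions are from GENCODE M21 and promoters from RefSeq.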

Additional observations from a re-analysis of the deposited data

Results flagged for a closer look

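The genotype effect of *Abcb1a* differed between the times of day by a test of the difference itself. The log2 fold change of Rev KO over wild-type was -1.04 at ZT8 and 0.29 at ZT20, and the difference of these effects was -1.33 on the log2 scale (SE 0.361, edgeR adjusted p = 0.0414). It rests on between 21 and 88 reads per library. It did not pass in 8 of the 12 fits with 1 library left out, where it lay between -1.54 and -1.12, nor without both wild-type ZT8 livers with high *Saa1* (-1.55, edgeR adjusted p = 0.0577). No group was large enough for a search for single outlying livers.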

How the results depend on the processing

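The 54 values that combine a transporter with a contrast were recomputed under each alternative. Of 450 values under settings other than leaving out 1 library, 407 kept direction and side of the threshold, 13 lost and 14 gained a call, and 16 changed sign. Of 648 values with 1 library left out, 584 kept both, 20 lost and 11 gained a call, and 33 changed sign. No value that had passed changed sign. Except where a setting tests fewer libraries or a lower threshold, the cause was not tested. *Abcb1a* rests on few reads, and *Slco1a4* and *Abcc3* on a spread within groups that hides a change of 1.5-fold.

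The number of transporters that passed at ZT20, 0 in edgeR, was 2 in DESeq2 on 12 libraries, 2 in DESeq2 with shrinkage and 2 without the filter. The interaction count of 1 was 2 in DESeq2 on 12 libraries and 2 without the filter, and so was the mean effect, also 1 in edgeR, with 2 and 2. In edgeR on 6 libraries, 1 transporter in place of 3 passed at ZT8, and 769 genes in place of 1224, and the calls of *Slco1a1* (0.43, edgeR adjusted p = 0.0921) and *Abcg2* (0.42, edgeR adjusted p = 0.0566) were lost. At an adjusted p of 0.01, 0 transporters passed at ZT8 and 0 in the interaction. The genes passing at 0.01 then numbered 472 at ZT8, 223 at ZT20, 357 in the interaction, 353 in the mean effect, 2343 for time in wild-type and 1231 for time in Rev KO. Size factors moved no count by more than 1.5 times. *Slco1a4* at ZT20, -0.0032 with the filter, was 0.0027 without it.

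Libraries with the same replicate number did not deviate together (mean correlation of deviations -0.0126, 0 of 18 pairs above 0.1), so no pairing by number was seen in this measure. In every group replicates 1 and 3 were the pair that differed most (chi-square of 142, 48.7, 25.1 and 45.4 for each degree of freedom). Whether the numbers follow an order of handling was not tested. With the replicate block, 2 transporters in place of 1 passed in the mean effect (*Slco1a1* in addition, 0.28), and *Slco1a4* changed sign at ZT20 (0.073) and over time in Rev KO (0.053).

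Without both WT ZT8 libraries with high acute-phase transcripts, 0 transporters passed at ZT8, 1 at ZT20, 0 in the interaction, 0 in the mean effect and 2 over time in wild-type. The genes passing numbered 346 at ZT8, 493 in the interaction, 494 in the mean effect and 1795 over time in wild-type. Signs changed at ZT8 for *Slco1a4* (-0.57) and *Slc22a7* (0.048), and at ZT20 for *Slco1a4* (0.00071). In the interaction they changed for *Slco1a4* (-0.57), *Slco1b2* (-0.10), *Slco2b1* (-0.16) and *Abcg2* (-0.18), and in the mean effect for *Slco1a4* (-0.28) and *Slc22a7* (0.18). Over time in wild-type they changed for *Slco1a1* (-0.21), *Slco1a4* (-0.58), *Abcc3* (-0.22) and *Abcg2* (-0.031).

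With 1 library left out, between 0 and 3 transporters and 542 to 1811 genes passed at ZT8, and between 0 and 2 transporters and 239 to 656 genes at ZT20. In the interaction they were 0 to 1 and 493 to 1260, in the mean effect 1 to 2 and 553 to 1348, and over time in Rev KO 2 to 4 and 1566 to 2847. The lowest counts of transporters came without WT ZT8 replicate 2 at ZT8 and without 6 of the 12 libraries in the interaction. The highest came without WT ZT8 replicate 1 at ZT20 and in the mean effect, and without Rev KO ZT20 replicate 1 over time in Rev KO. Over time in wild-type, 4 transporters passed in each of these fits, and 2865 to 4195 genes. Among transporters that had not passed, the ZT8 value ranged from -0.72 to 0.34 for *Abcc3*, from -0.13 to 0.84 for *Slco1a4* and from -0.15 to 0.029 for *Slco2b1*. At ZT20 it ranged from -0.38 to 0.23 for *Abcc3*, from -0.0013 to 0.49 for *Slc22a7* and from -0.15 to 0.16 for *Slco1a4*. The interaction ranged from -0.67 to 0.38 for *Abcc3*, from -0.054 to 0.14 for *Abcg2*, from -0.12 to 0.84 for *Slco1a4* and from -0.059 to 0.12 for *Slco2b1*. The mean effect ranged from -0.39 to 0.15 for *Abcc3*, from -0.21 to 0.041 for *Slc22a7* and from -0.065 to 0.42 for *Slco1a4*. The time difference ranged from -0.045 to 0.14 for *Slco1a1* and from -0.14 to 0.82 for *Slco1a4* in wild-type, and from -0.14 to 0.14 for *Slco1a4* in Rev KO.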

Other observations

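The summed level of the 9 transporters was 3923, 3255 and 3214 CPM in WT ZT8, between 3752 and 3840 CPM in Rev KO ZT8, between 2709 and 2817 CPM in WT ZT20 and between 2938 and 3279 CPM in Rev KO ZT20, and it is made up mostly of *Slco1b2*, *Slco1a1* and *Abcc2*. *Abcb1b*, whose transcript shares sequence with *Abcb1a*, spread from 1.26 to 10.3 CPM among the 3 WT ZT20 livers, whereas *Abcb1a* in the same livers ranged from 1.57 to 2.47 CPM. *Slco1a5* and *Slco1a6*, the neighbours of *Slco1a1* and *Slco1a4*, had at most 2 reads in any library.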
